A study of Mus musculus with 8 samples.

Results

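The spots described here are those of the 2 E18.5 control diaphragm sections in which transcripts of the cartilage collagens Col2a1, Col9a1 and Col9a3 took the largest share of all transcripts. Within each section, spots with at least 1000 unique molecular identifiers (UMIs, the count of distinct captured transcripts) were ranked by the summed UMIs of the 3 genes divided by the UMIs of the spot, and the top 5% were taken. This gave 173 of 3460 spots in control 1 and 126 of 2525 spots in control 2, together 299 of 5985 spots, out of 12703 spots in all 8 sections of the series. They are called Col2a1-rich spots below, and not cartilage, because Col2a1 was found in all of them while the rest of their content, Col9a1 and Col9a3 included, differed between the sections. In control 1, 154 of the 173 spots (89.0%) scored as skeletal muscle, close to the 89.4% of the other spots of that section. In control 2 this held for 18 of 126 (14.3%), against 90.9% of the other spots.

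Hyaline cartilage is built by chondrocytes, which surround themselves with a matrix of collagen II fibrils and the proteoglycan aggrecan. Collagens IX and XI are minor partners of these fibrils, collagen IX on their surface and collagen XI inside them. The transcription factor SOX9 switches on the collagen and aggrecan genes, and SOX5 and SOX6 act with it. Around the diaphragm, cartilage is found in the ribs and the sternum, onto which the muscle fibers insert.

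The study profiled horizontal sections of fixed, paraffin-embedded mouse diaphragm with 10x Visium, in which probes for 19465 genes are counted on spots of 55 µm spaced 100 µm apart. The sections were 5 µm thick, so a spot holds fragments of several cells that may be of different types. The E18.5 controls (E for embryonic day) are 2 sections, each of 1 embryo that retained at least 1 expressed allele of CaV1.1 and 1 of β-catenin. Further sections, of E14.5 controls and of embryos without CaV1.1 or with β-catenin deleted in muscle by HSA-Cre, entered no comparison here. Control 1 held 82859104 UMIs and control 2 held 69837233, with a median per kept spot of 22997 and 27184. The Col2a1-rich spots had a median of 30890 UMIs in control 1, against 22635 in the other spots of that section. In control 2 the order was the opposite, with 19754 UMIs in the Col2a1-rich spots and 27443 in the others. Muscle spots were those above a threshold in the mean of 9 skeletal muscle genes. In spot data of this kind, fewer cells of a type and less RNA per cell cannot be told apart.

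Col2a1 (chromosome 15, 97975602 to 98004724 in GRCm38.p6) encodes the main collagen of cartilage, Col9a1 (chromosome 1, 24177589 to 24252738) and Col9a3 (chromosome 2, 180598102 to 180622192) chains of collagen IX. The spots were chosen by the counts of these 3 genes, so their values are a description only. In control 1, the share of the 3 genes per 10000 UMIs ran from 36.9 over a median of 60.8 to 548 in the chosen spots, and the median of the other spots was 1.23. In control 2, it ran from 6.51 over a median of 14.1 to 640, and 51.7% of the other spots held no UMI of the 3 genes. The lowest chosen share of control 2 was thus below that of control 1, and a share of at least 0.5% was reached by 116 spots of control 1 and by 16 of control 2. At the border of the rule, the last spot taken in control 1 had 36.9 and the next one 36.6 per 10000. In control 2 these values were 6.51, from 14 UMIs of the 3 genes, and 6.43, from 12 UMIs. Summed over the region, and given as counts per 1000000 UMIs of that region (CPM), Col2a1 reached 7805 CPM in control 1 and 2784 in control 2, against 309 and 35.6 in the other spots. Col9a1 reached 743 and 297 CPM, against 39.2 and 5.46. Col9a3 reached 609 and 164 CPM, against 29.0 and 7.05. Every chosen spot held Col2a1, but Col9a1 was found in 172 of 173 spots of control 1 and in 62 of 126 spots of control 2. In the other spots, Col9a1 was found in 42.5% and 12.3%.

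The position of the spots was not used by the rule. Of the grid neighbors of Col2a1-rich spots, 73.5% in control 1 and 60.9% in control 2 were such spots themselves, while they were 5% of all spots. Joined through neighbors, they formed 12 patches in control 1 and 26 in control 2, of which 7 and 10 were single spots. In control 1, a single patch of 152 spots (87.9% of all) lay against the left edge of the capture area, from array column 0 to 18, and 145 of its spots scored as muscle. In control 2, no spot under tissue touched that edge, and the largest patch, with 29 spots of which 2 scored as muscle, lay at the lower margin of the section. Control 2 also had a patch of 26 spots and others of 10, 9 and 9 spots in the middle of the section, in tissue rich in tendon transcripts, and a patch of 6 spots at its left margin. Control 1 had a patch of 8 spots at its lower margin.

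**Figure D1:**
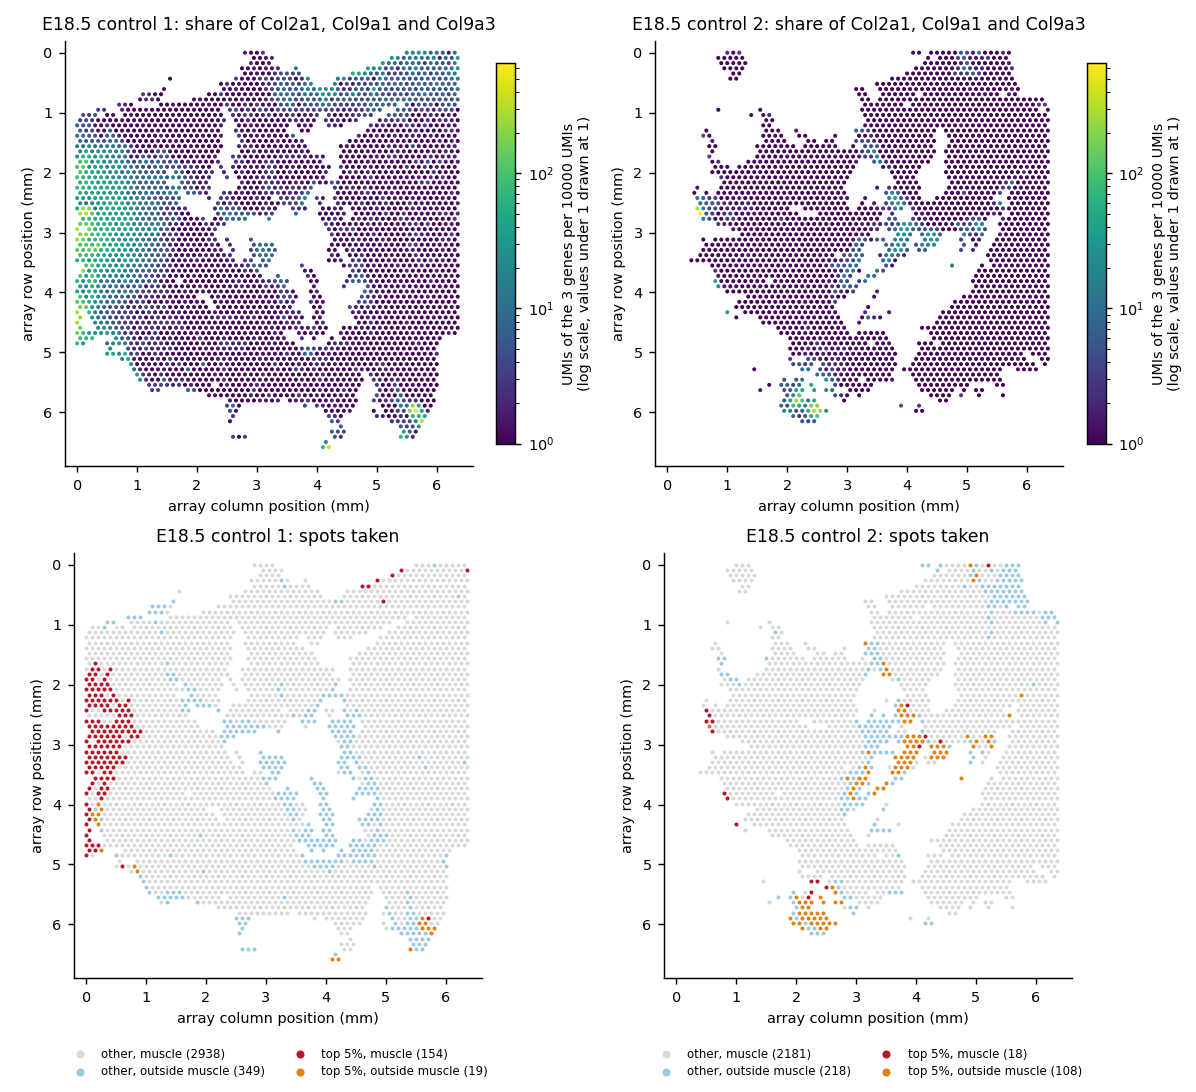
Maps of E18.5 controls 1 and 2, with each point a spot at its position on the capture area in mm. The upper panels show the summed UMIs of Col2a1, Col9a1 and Col9a3 per 10000 UMIs on a log color scale, and the lower panels show the 173 and 126 spots taken, split by the muscle score. The spots of control 1 gather at the left edge, inside muscle, and those of control 2 in the middle and at the lower margin, outside muscle.

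In the edge patch of control 1, cartilage transcripts stood beside a muscle profile. Ttn, the giant spring protein of the sarcomere, stood at 7062 CPM in the 152 spots, and at 7484 in spots 800 µm away from any chosen spot. The 9 skeletal muscle genes together made 125283 CPM in the patch. Col2a1 fell with the distance from the edge over the first 6 bands of 8 array columns. It was at 6464 CPM in the band of array columns 0 to 7, at 2218 in columns 8 to 15, at 858 in columns 16 to 23, at 309 in columns 24 to 31 and at 66.0 in columns 40 to 47, and between 132 and 499 in the bands further on. Comp, whose pentameric product binds matrix collagens, fell from 204 over 68.7 and 30.8 to 10.6 in the same first bands, and Col9a1 from 633 over 143 and 77.8 to 40.8. The genes did not all keep their ratio to Col2a1. Per 100 UMIs of Col2a1 there were 3.16, 3.10, 3.59 and 3.41 UMIs of Comp in these 4 bands, and 9.80, 6.44, 9.06 and 13.2 of Col9a1. Acan, the core protein of aggrecan, had 1.02, 0.868, 1.58 and 3.62, and Sox9, the transcription factor of chondrocytes, 0.690, 1.02, 1.47 and 2.69, so these genes fell less with the distance than Col2a1 did. Acan went from 65.7 to 11.2 CPM over these 4 bands, and Sox9 from 44.6 to 8.32. In the bands from column 32 on, Acan ran from 2.91 to 30.2 and Sox9 from 5.12 to 26.1. Both had thus come down to their level in the rest of the section. Spots adjoining the chosen spots of control 1 held 24.7% of their Col2a1 level, 25.3% of Col9a1, 24.3% of Col9a3, 25.4% of Col9a2 and 26.2% of Comp, but 35.3% of Acan and 53.4% of Sox9. In control 2 the same share was 9.15% for Col2a1, 6.04% for Col9a1, 12.4% for Col9a3, 23.7% for Col9a2, 10.9% for Comp, 30.0% for Acan and 20.001% for Sox9. The source of the cartilage transcripts in the edge patch was not tested.

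**Figure D2:**
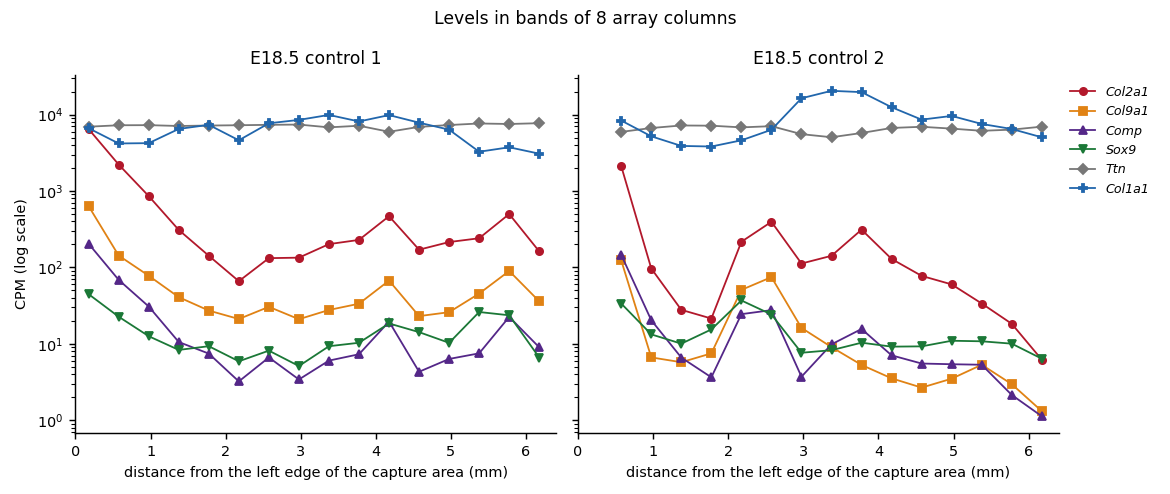
CPM (log scale) of 6 genes in bands of 8 array columns, against the distance of the band from the left edge of the capture area in mm, for E18.5 controls 1 and 2. In control 1, Col2a1, Col9a1 and Comp fall together over the first bands while Ttn stays between 6941 and 7274, and in control 2 Col1a1 has its peak in the middle of the section.

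The patches held different sets of cartilage genes. They were delimited after the values had been seen, so they are described without a test. The 8 spots at the lower margin of control 1 had 14348 CPM of Col2a1, 2889 of Col9a1, 475 of Sox9, 550 of Acan and 66.8 of Cytl1, which encodes a secreted protein of chondrocytes. The 29 spots at the lower margin of control 2 had 5460 of Col2a1, 1192 of Col9a1, 445 of Sox9, 237 of Acan and 187 of Cytl1. These 2 patches thus carried the transcription factor together with the matrix genes. In the edge patch of control 1, Sox9 was lower, at 48.7 CPM, and there were 0.629 UMIs of Sox9 per 100 UMIs of Col2a1, against 3.31 and 8.16 in the marginal patches. The 6 spots at the left margin of control 2, which include the highest share of either section, had 13139 CPM of Col2a1, 111 of Sox9 and 4992 of Ttn. These sums rest largely on few spots, since the share of the 3 genes of the rule reached 640 per 10000 UMIs in the highest spot while the median of the 6 spots was 16.5.

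The 4 central patches of control 2 had Col2a1 and Acan, with few counts of Col9a1, Sox9 and Cytl1. In the largest of them, of 26 spots, Col2a1 was at 1581 CPM and Acan at 266, whereas Col9a1 and Sox9 had 8 UMIs each among 553278 and Cytl1 had 0. In the patch of 10 spots, Col2a1 was at 1958, Acan at 494, Col9a1 at 3.61 and Sox9 at 7.21. Over the 4 patches, Col9a1 was counted 8, 1, 3 and 2 times, beside 875, 543, 189 and 408 UMIs of Col2a1. Tendon genes were high in these patches. Tnmd, a membrane protein of mature tendon cells, was at 1238, 1861, 2035 and 1395 CPM, against 17.5 in the lower and 501 in the left marginal patch of that section. Col1a1, the main collagen of tendon, was at 59964, 82022, 72502 and 66564, against 14516 and 15644 in those patches. Of the 126 spots of control 2, 64 (50.8%) were also among the top 5% by the tendon genes Scx and Tnmd, compared with 3 of 173 (1.73%) in control 1.

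**Figure D3:**
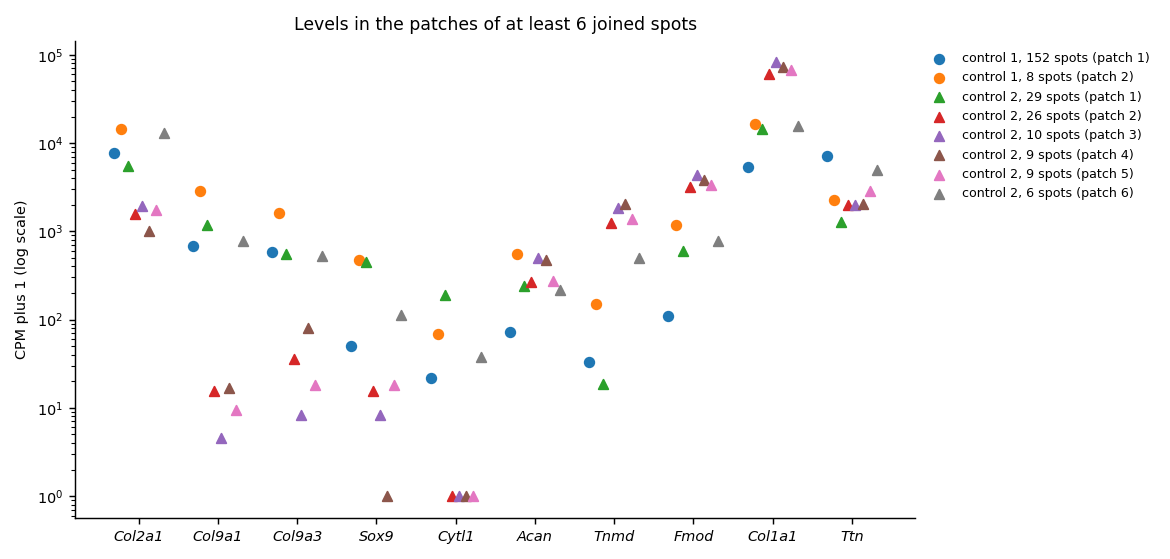
CPM of the patch plus 1 (log scale) of 10 genes in the 8 patches of at least 6 joined Col2a1-rich spots. Circles are patches of control 1 and triangles patches of control 2. The central patches of 26, 10, 9 and 9 spots in control 2 stand low in Col9a1, Sox9 and Cytl1 and high in Tnmd, Fmod and Col1a1.

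To ask which other genes distinguished the spots in both sections, UMIs were summed over the Col2a1-rich spots and over the other spots of each section, and edgeR's quasi-likelihood test compared these sums, the section being a block. The summed regions, and not the spots, are the replicates, with n = 2 sections and 1 residual degree of freedom. Of 14014 genes tested, 23 were higher and 11 lower at a Benjamini-Hochberg adjusted p under 0.05, which is 0.243% of all genes in either direction, 0.164% higher and 0.0785% lower. DESeq2 called 39 higher and 7 lower. At an unadjusted p under 0.05 edgeR had 481 of the 14014 genes. Without the section block it called 0 genes, with 285 at an unadjusted p under 0.05. All 23 higher genes were higher in each section, while 54.4% of all genes tested had the same direction in both. The genes were measured in the same spots that were chosen for cartilage collagens, so that genes used by the same cells follow the choice.

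The matrix genes of cartilage were the group that rose. Of 16 listed genes besides those of the rule, 15 had enough counts to be tested and 12 rose, with a median log2 fold change of 4.65 over the 15 genes, against -0.03 over all genes tested. Comp (chromosome 8) was at 250 CPM in control 1 and 180 in control 2, against 10.9 and 4.48 in the other spots, a log2 fold change of 4.74 ± 0.41 (SE, n = 2 sections, edgeR adjusted p = 0.0045). Chad, chondroadherin, a leucine-rich protein that binds chondrocytes to collagen, was at 99.0 and 224 CPM, against 5.75 and 4.43 (log2 fold change 4.71 ± 0.42, edgeR adjusted p = 0.0053). Cnmd, the angiogenesis inhibitor chondromodulin, was at 105 and 28.2, against 4.04 and 0.744 (log2 fold change 4.79 ± 0.31, edgeR adjusted p = 0.0030). In each of these genes both chosen regions lay above both other regions. The sums of control 2 were uneven over its spots. Of 73 Cnmd UMIs there, 55 lay in the 29 spots of the lower marginal patch. The 4 central patches had 0, 0, 1 and 1. For Comp these counts were 238 of 466 in the marginal patch and 42, 19, 1 and 19 in the central ones. Acan was at 94.6 and 284, against 15.2 and 11.7 (log2 fold change 3.45 ± 0.47, edgeR adjusted p = 0.035). Hapln1, which links aggrecan to hyaluronan, rose by 3.97 ± 0.31, and Col9a2, the remaining chain of collagen IX, by 3.76 ± 0.50 on the log2 scale. Matn3, Epyc, Snorc, Ucma, Mia and Cytl1, which encode a matrilin, a small proteoglycan, a membrane proteoglycan and 3 secreted proteins of chondrocytes, rose by 4.31 to 5.38 on the log2 scale. Of 113 Cytl1 UMIs in the chosen spots of control 2, 96 lay in the lower marginal patch, and the 4 central patches had 0. With spots chosen by Col2a1 alone, 8 of the 15 matrix genes were called, and against distant spots only 10. Acan and Col9a2 lost their call in both settings.

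The 3 tested matrix genes that did not pass edgeR's test were the chains of collagen XI and Col27a1, while DESeq2 called 13 of the 15 matrix genes. Col11a2 was at 309 and 549 CPM, against 40.4 and 25.8 (adjusted p = 0.070 in edgeR's test). Col11a1 was at 102 in control 1, where the other spots had 122, and at 1170 in control 2, where the others had 115. The sections thus went in different directions for Col11a1, which tendon also uses. Matn1, a matrilin of mature cartilage, was left out of the test for low counts, with 5 UMIs in the chosen spots of control 1 and 1 UMI in those of control 2.

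**Figure D4:**
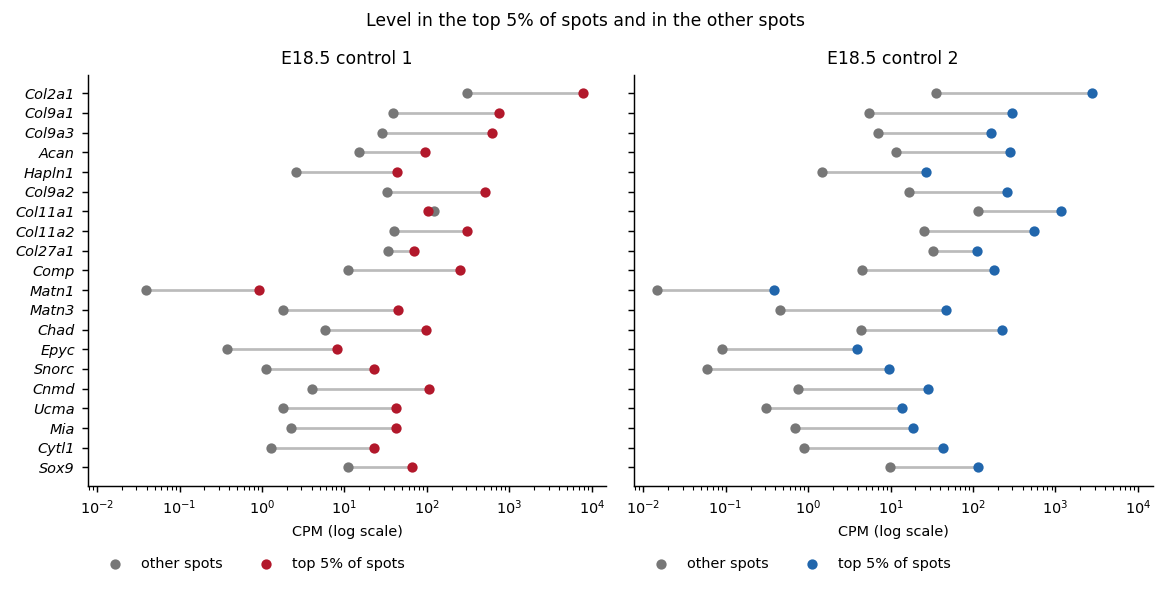
CPM (log scale) in the Col2a1-rich spots and in the other spots of each E18.5 control, for the 3 genes of the rule, the 16 listed matrix genes and Sox9. Each gene is higher in the chosen spots of both sections except Col11a1, which is at 102 and 122 in control 1.

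Among 10 listed regulators of cartilage, 9 were tested and Sox9 was the 1 called by edgeR, while DESeq2 called 2 and 6 had an unadjusted p under 0.05 in edgeR. Sox9 (chromosome 11, 112782210 to 112787757) was at 67.0 CPM in control 1 and 116 in control 2, against 10.9 and 9.80 in the other spots, a log2 fold change of 2.91 ± 0.30 (SE, n = 2 sections, edgeR adjusted p = 0.010). In control 2, 229 of its 299 UMIs lay in the 29 spots of the lower marginal patch. The 4 central patches had 8, 2, 0 and 4. Wwp2, a ubiquitin ligase strongly transcribed in cartilage, just missed the threshold, with a log2 fold change of 2.04 ± 0.30 (edgeR adjusted p = 0.051). Sox5 and Sox6 were not called by edgeR. Sox6, which muscle fibers also use, was at 39.5 and 26.3 CPM, against 44.8 and 39.4 in the other spots, and Sox5 at 4.76 and 10.0, against 2.91 and 2.80. Nkx3-2 had no UMI in the chosen spots of either section, which allows up to 0.549 and 1.16 CPM by counting error alone.

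None of the 14 growth signal genes of cartilage passed edgeR's test, 2 of them had an unadjusted p under 0.05, and DESeq2 called 0. Pth1r, the receptor of parathyroid hormone-related protein, was at 17.9 and 35.2 CPM, against 13.2 and 12.4. Ihh, the hedgehog ligand of chondrocytes leaving the cell cycle, had 4 UMIs and 1 UMI in the chosen spots. Among genes of hypertrophic cartilage, the stage that precedes bone, Mef2c, which muscle also uses, was at 429 and 158 CPM, against 455 and 372 in the other spots. The other genes of that list had few counts. Col10a1, its collagen, had 1 UMI in the chosen spots of control 1 and 0 in those of control 2, and Mmp13 had 0 in both. Of 9 listed hypertrophic genes 6 were tested, and edgeR and DESeq2 called 0, with 1 at an unadjusted p under 0.05. In the osteoblast list, Sp7 had 2 and 7 UMIs and Bglap, osteocalcin, 1 and 0 in the chosen spots. Of its 6 tested genes edgeR and DESeq2 called 0, and 0 had an unadjusted p under 0.05. Of 7 listed osteoclast genes 5 were tested, and edgeR and DESeq2 called 0, with 0 at an unadjusted p under 0.05. Ctsk, the collagen-degrading protease that marks osteoclasts but is also made by fibroblasts, was at 67.4 and 484 CPM, against 66.8 and 70.8. Mmp9, an osteoclast gelatinase, had 2 and 0 UMIs in the chosen spots, against 57 and 72 in the others, and Calcr, the calcitonin receptor, 19 and 2, against 417 and 353. The other spots hold far more UMIs in total, so these counts are not levels. Scaled for region size, the log2 ratios of controls 1 and 2 were -0.88 and -4.42 for Mmp9 and -0.59 and -3.04 for Calcr.

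Genes for the making of the matrix were not called. Of 24 genes for chondroitin sulfate chains, the sugar chains of aggrecan, 23 were tested and 0 passed in edgeR or DESeq2. In edgeR, 6 of them had an unadjusted p under 0.05, as did 481 of all 14014 genes. Their median log2 ratio was 0.10 in control 1 and 0.95 in control 2. Of 19 genes for the folding and export of collagen, 0 passed in either tool and 2 had an unadjusted p under 0.05, with medians of 0.22 and 1.13. Serpinh1, the collagen chaperone HSP47, was at 857 CPM in control 1, against 676, and at 3533 in control 2, against 757. Chst11, which sulfates chondroitin, had a log2 fold change of 1.36 ± 0.36 (adjusted p = 0.80 in edgeR's test).

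Transcripts of other tissues set the sections apart. The tendon list summed to 804 CPM in the chosen spots of control 1, against 876 in the others, and to 6404 in control 2, against 895. Its gene with the most UMIs was Tnc in control 1, at 222 CPM, and Fmod, fibromodulin, in control 2, at 2643 CPM. The fibroblast and perichondrium list summed to 17057 against 17280 in control 1 and to 115027 against 19559 in control 2. Col1a1 was its most abundant gene in both, at 5768 and 50914 CPM in the chosen spots. The skeletal muscle list summed to 122020 against 121528 in control 1 and to 35612 against 125355 in control 2. No gene of these 3 lists passed edgeR's test or DESeq2, and 1 gene, in the fibroblast list, had an unadjusted p under 0.05. Their part in the results was not tested. The genes of macrophages summed to 156 against 175 in control 1 and to 532 against 228 in control 2. The endothelial list summed to less in both sections, at 413 against 527 and at 423 against 479, as was the erythrocyte list, at 626 against 872 and at 397 against 735. Of the 6 endothelial, 6 macrophage and 4 erythrocyte genes tested, edgeR and DESeq2 called 0, with 1, 0 and 1 at an unadjusted p under 0.05.

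Liver transcripts were lower in the Col2a1-rich spots, and nearly all of them came from control 1. The 4 hepatocyte genes summed to 65.9 CPM in the chosen spots and 1371 in the other spots of control 1, of which Alb made 38.1 and 816. In control 2 they summed to 0.386 and 0.744, with Alb, Apoa1 and Ttr at 0 in the chosen spots. Apoa1 and Ttr fell, with 37 and 28 UMIs in the chosen spots of control 1, against 13760 and 7777 in the others. The further 9 genes that fell were Afp, Igfbp1, Ambp, Fgb, Fgg, Fga, Apoa2, Serpina1e and Apoh, named after their values were seen, each a product of fetal liver. Fgb and Fga had no UMI in either region of control 2, so that their call rests on control 1. The same holds for Apoa1 and Ttr, which had 0 UMIs in the chosen spots of control 2 against 30 and 5 in the others, too few to measure a direction there.

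**Figure D5:**
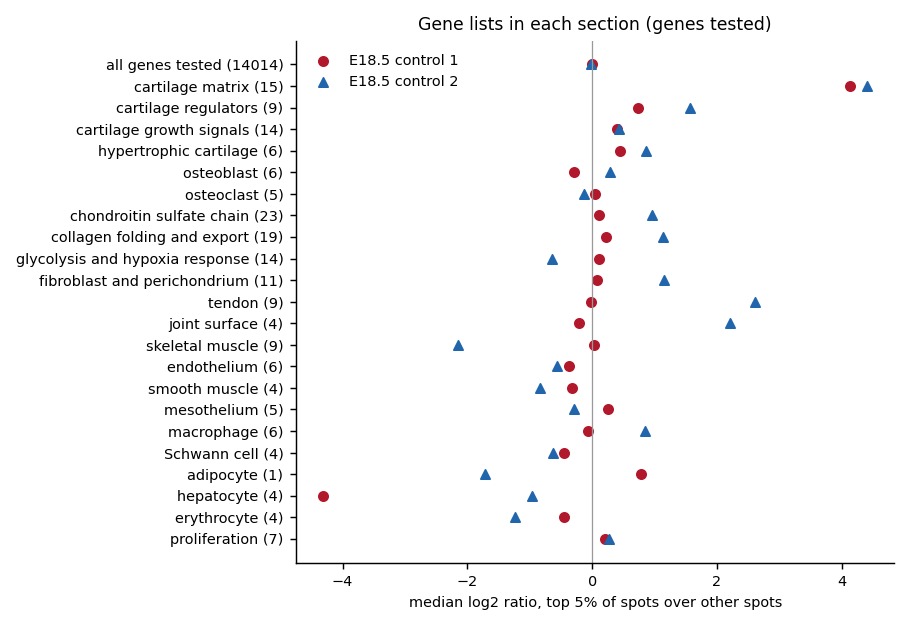
Median log2 ratio of the Col2a1-rich spots over the other spots for each gene list, with the number of genes tested in parentheses, in E18.5 control 1 (circles) and control 2 (triangles). The cartilage matrix list stands at 4.13 and 4.41, whereas tendon, joint surface and skeletal muscle lists lie near 0 in control 1 and move in control 2.

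Outside the lists, Prelp met the rule for named genes. Prelp, a leucine-rich proteoglycan that anchors collagen to basement membranes and is abundant in cartilage, had 269 and 345 UMIs in the chosen spots and log2 ratios of 1.77 in control 1 and 2.22 in control 2 (SE of the fit 0.29, edgeR adjusted p = 0.049). The 8 other genes that rose below the level required by that rule, besides Clec3a (named by the rule in later comparisons), were Calml3, Scrg1, Ncmap, Cxcl14, Alx1, Susd5, Hoxc8 and Clec11a, named after their values were seen. Clec3a, a lectin of cartilage, had 483 UMIs in the chosen spots and 287 in the others of control 1, and 65 and 30 in control 2 (log2 fold change 4.95 ± 0.35, edgeR adjusted p = 0.0030). Scrg1, a gene found in differentiating chondrocytes, rose by 3.58 ± 0.38 on the log2 scale.

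Because most of a section is muscle, the same spots were also held against other spots outside muscle, 349 in control 1 and 218 in control 2. The chosen side kept its muscle spots, 154 of 173 in control 1 and 18 of 126 in control 2, so that in control 1 the comparison is largely one of muscle with other tissue. The 9 skeletal muscle genes that define muscle spots were left out of the test. Of 12511 genes tested by edgeR, 17 were higher and 97 lower, at an adjusted p under 0.05, which is 0.911% of all genes in either direction, 0.136% higher and 0.775% lower. DESeq2 called 16 higher and 49 lower. The cartilage matrix list kept a median log2 fold change of 3.23, against 0.00 over all genes, and 10 of its 15 tested genes rose. Matn3 had 244 UMIs against 20 in control 1 and 121 against 9 in control 2 (log2 fold change 4.58 ± 0.38). Acan did not pass here, being at 92.1 and 62.7 CPM in the other spots outside muscle. Sox9 rose by 1.95 ± 0.31 on the log2 scale (edgeR adjusted p = 0.0066), from 28.6 to 67.0 CPM in control 1 and from 29.6 to 116 in control 2.

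The genes that were lower than in other tissue outside muscle belonged to several cell types. Prph, an intermediate filament of peripheral neurons, was at 0.732 CPM in the chosen spots of control 1, against 18.8, and had 24 UMIs in those of control 2, against 1211 (log2 fold change -4.45 ± 0.39). Myh11, the smooth muscle myosin, had 17 and 21 UMIs, against 199 and 340 (log2 fold change -2.83 ± 0.35). Mbp, which encodes myelin basic protein, fell by 1.81 on the log2 scale by edgeR and was not called by DESeq2. Myl7, an atrial myosin light chain, had 13 UMIs against 812 in control 1 and 11 against 99 in control 2. All 4 hepatocyte genes fell, again by way of control 1, where Alb had 208 UMIs against 41282, while control 2 had 0 against 1, and DESeq2 called 0 of the 4. Apoa2, Serpina1e, Apoh and Apoc1, all made by liver, were the other lower genes named by the rule. In control 2 they had 1, 0, 0 and 7 UMIs, against 6, 3, 1 and 32. The calls of Apoa2, Serpina1e and Apoh thus rest on control 1. Chondroitin sulfate and collagen folding genes, with medians of 0.01 and 0.08, had 0 calls by edgeR or DESeq2 and 0 genes at an unadjusted p under 0.05, which 1103 of the 12511 genes had.

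The tissue around the spots was described from border spots, which are not chosen but have a chosen spot among their 6 nearest positions, and distant spots, at least 4 steps from every chosen spot. There were 116 and 143 border spots and 2963 and 1972 distant spots in controls 1 and 2. Of 13933 genes tested by edgeR, 3 were higher and 9 lower in border spots, which is 0.0861% of all genes in either direction, 0.0215% higher and 0.0646% lower. DESeq2 called 8 higher and 3 lower, and edgeR without TMM scaling 11 higher and 11 lower. All 3 higher genes were of the matrix list, whose median log2 fold change was 2.51 against -0.02 over all genes. Border spots adjoin spots chosen for cartilage collagens, and the share of these collagens ran on across the cut. Higher matrix genes in border spots thus follow from the choice. Chad had 77 and 118 UMIs in the border spots (log2 fold change 3.08 ± 0.31, edgeR adjusted p = 0.013). Comp rose by 2.79 ± 0.31 and Col9a2 by 2.14 ± 0.25 on the log2 scale. Col2a1 itself, which the rule used, was at 1931 CPM in the border spots of control 1 and 255 in those of control 2, against 189 and 15.6 in the distant spots. Col1a1 was at 5428 in the border spots of control 1 and 25979 in those of control 2, so the surroundings of the spots differed in the same way as the spots. The 9 lower genes were Apoa1 and Ttr of the hepatocyte list and, named after their values were seen, Apoa2, Afp, Fga, Fgb, Fgg, Igfbp1 and Serpina1e. Control 2 held few of these transcripts, with 1 UMI of Apoa1 in border and 26 in distant spots and 0 and 4 of Ttr.

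Tendon is another collagen-rich tissue of these sections, and spots rich in Scx and Tnmd (the top 5% by these genes) were compared after leaving out the 3 and 64 spots that belonged to both sets. Of 11481 genes tested by edgeR, 14 were higher and 2 lower than in tendon-rich spots, which is 0.139% of all genes in either direction, 0.122% higher and 0.0174% lower. DESeq2 called 24 higher and 29 lower, and edgeR without TMM scaling 34 higher and 97 lower. The higher genes included 8 of 15 tested matrix genes and Sox9, with a list median of 4.26 against 0.03 over all genes. Sox9 had 359 and 289 UMIs in the Col2a1-rich spots, against 28 and 10 in the tendon-rich spots (log2 fold change 4.20 ± 0.43, edgeR adjusted p = 0.023). Cytl1 had 123 and 112 UMIs, against 5 and 1, and Mia 225 and 46, against 11 and 1. Comp, which tendon also makes, had 1341 and 384 UMIs, against 68 and 22 (log2 fold change 4.26 ± 0.38). Clec3a and Susd5, named by the rule, had 482 and 262 UMIs in control 1, against 8 and 13, and 61 and 92 in control 2, where the tendon-rich spots held 0 of each. Acan and Col11a1 were not called by edgeR. Their log2 ratios in controls 1 and 2 were -0.35 and 0.47 for Acan and -2.97 and -1.16 for Col11a1. DESeq2 called 10 matrix genes higher and 1 lower. Acan was at 155 and 124 CPM in these tendon-rich spots of controls 1 and 2, and Col11a1 at 998 and 991. Of 7 tested tendon genes, edgeR called 1 lower and DESeq2 5, and 6 had an unadjusted p under 0.05 in edgeR, as did 899 of all 11481 genes. The spots of the other side were chosen by tendon genes, and the spots shared by both sets had been removed, so lower tendon genes follow from the choice. The removal also changed the level of cartilage genes on the chosen side of control 2. Sox9 rose from 116 CPM in all chosen spots to 238 in those left, and Cytl1 from 43.7 to 92.2. Acan and Col11a1 fell, with 224 of 736 and 578 of 3028 UMIs left, while the region kept 1214894 of its 2588679 UMIs. The tendon gene called by edgeR, Ptx4, fell, with 17 and 14 UMIs against 196 and 137 (log2 fold change -3.36 ± 0.33, edgeR adjusted p = 0.022). The median of the tendon list was -2.32. The other lower gene was Apoa1, with 37 UMIs against 373 in control 1 and 0 against 1 in control 2, so that its call rests on control 1.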

How the data were processed

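The authors aligned the probe reads with Space Ranger 2.0.1 on mm10 (GRCm38, mouse probe set v1.0) and deposited raw counts, as UMI counts per gene and spot for spots under tissue. No normalization had been applied. Here, spots with at least 1000 UMIs were kept and ranked as described. Muscle spots lay above Otsu's threshold of the mean log value of 9 skeletal muscle genes. Sums of UMIs over each region of a section were tested with edgeR 4.0.16 (filterByExpr, TMM, quasi-likelihood F test, section as a block because both regions are of 1 embryo, Benjamini-Hochberg adjustment), and with DESeq2 1.42.0 as an alternative. The genes of the rule took part in no count of calls. Levels in CPM are untransformed sums over the region, while log2 fold changes include TMM scaling, and the level of 1 gene should be compared between regions and not with other genes, since probes differ in number. With 2 sections the p-values rest only in part on the spread of a gene between these sections. The fits had 1 residual degree of freedom. To this edgeR added prior degrees of freedom from the spread of all genes, 7.03, 11.5, 9.70 and 6.47 in the 4 comparisons. A small p-value is thus no measure of how well the 2 sections match in that gene. Limits from counts of 0 (3 UMIs) cover counting error only. Of 205 genes in 22 lists, 199 had a probe. Outside the lists, named genes are the called genes with the largest fold changes (12 higher and 8 lower in the main comparison, 6 each in the others) that had the same direction in both sections and a mean log2 CPM no lower than 5. The members and lists were chosen with earlier results of these data known. The procedure was tested on simulated data with known fold changes and the same mean profile in both sections. Those data lacked the differences in tissue content between the real sections, so they do not show how the test behaves under them.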

Additional observations from a re-analysis of the deposited data

Results flagged for a closer look

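The highest share of Col2a1, Col9a1 and Col9a3 in any spot of the series, 807 per 10000 UMIs, was found in the E18.5 section with β-catenin deleted in muscle, a section that entered no comparison. The highest spots of the E18.5 controls had 548 and 640 per 10000. That section had 3 spots with a share of at least 0.5%, against 116 and 16 in the controls, and the median of its top 5% of spots was 4.28 per 10000.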

How the results depend on the processing

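The comparison with all other spots called 34 genes. The count was 60 with the top 3% of spots, 18 with spots chosen by Col2a1 alone, 55 with spots chosen by Col9a1 and Col9a3, 21 against distant spots only and 72 without TMM scaling. Among settings added after seeing the data, a share of at least 0.5% gave 112 calls, and spots outside muscle only gave 152 (45 higher and 107 lower). Leaving out array columns 0 to 19, which hold the edge patch of control 1, and taking the top 5% anew, also chosen after seeing the data, changed the count to 48, and 12 matrix genes rose there too. Outside muscle, the main 114 calls became 65 with DESeq2 and 288 without the filter on low counts. For border spots, the main 12 became 22 without TMM and 41 without the filter. Against tendon-rich spots, the main 16 became 53 with DESeq2, 131 without TMM and 175 without the filter. Without the replicate block, edgeR called 0 genes in all 4 comparisons, with 285, 493, 425 and 613 genes at an unadjusted p under 0.05, so that every call rests on the pairing of the regions of a section. Without TMM, the median log2 fold change of all genes was 0.14, -0.37, 0.20 and -0.13 in the 4 comparisons in this order. Of the 16 named genes called in the first comparison, all kept their direction under every alternative, and the 14 higher genes also in each section alone. Apoa1 and Ttr had too few UMIs in control 2 to give a direction there. Acan, Col9a2, Epyc, Snorc and Prelp lost their call with spots chosen by Col2a1 alone, Acan, Col9a2 and Prelp against distant spots, Prelp with the top 10%, and Epyc without columns 0 to 19 and outside muscle. The causes were not tested. With 1 section left out, no residual degree of freedom remains, so no count was made. Genes near 0 UMIs are limited by depth, and 2 sections limit every p-value.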

Other observations

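By the same rule, the top 5% of spots had a median share of 3.03, 5.52 and 2.68 per 10000 UMIs in E14.5 controls 1, 2 and 3, of 6.11 in the E14.5 section without CaV1.1 and of 2.16 in the E18.5 section without CaV1.1. Their highest spots had 9.38, 50.7, 8.80, 19.5 and 34.7 per 10000. Over the whole section, Col2a1 was at 9.90, 18.3 and 15.1 CPM in the E14.5 controls, at 803 and 137 in the E18.5 controls, at 18.1 and 6.01 in the sections without CaV1.1 at E14.5 and E18.5, and at 34.8 in the section with deleted β-catenin. Col9a2 was at 57.8, 87.6 and 70.9 in the E14.5 controls, at 64.4 and 25.8 in the E18.5 controls, at 71.7 and 115 in the sections without CaV1.1 at E14.5 and E18.5, and at 29.5 in the section with deleted β-catenin. With 1 section for each mutant group these values were not compared.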
